A study of Mus musculus with 8 samples.

Results

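The genes described here are 8 genes of Schwann cells and of the myelin that these cells make, Pmp22, Mbp, Prx, Mag, Sox10, S100b, Egfl8 and Ngfr, out of 29608 gene names on the array. They were found by their gene names in the scanner files, on non-control spots, by a rule that uses no measured value. The 8 genes had 11 probes, and the brightest probe of each gene was well above background in every RNA sample on both arrays.

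Forepaw skin was taken from male mice of the strain C57BL/6J, as labelled for both genotypes, at an age of 9 to 10 weeks. They were either WT or PAC1R KO mice, which lack both alleles of Adcyap1r1 in every cell. Each injection into the skin of the anaesthetised mice was 5 µL of saline with 0.1% BSA, either alone (vehicle) or with 1e-07 mol/L of PACAP, a peptide that acts on the receptor PAC1R, and skin was taken 30 or 60 min later. In the experiment 6 mice of each genotype were injected, and which mice entered which RNA sample, or whether RNA was pooled, is not given in the sources used here. The 8 RNA samples were hybridised in 4 pairs of PACAP and vehicle (WT 30 min, KO 30 min, WT 60 min and KO 60 min), each pair on 2 arrays with the dyes Cy3 and Cy5 swapped. The 2 arrays of a pair hold the same RNA and were counted as 1 replicate, so PACAP and vehicle were compared without replicate animals. The 4 arrays of each genotype were on a slide of their own, which leaves genotype and slide confounded, and they cannot be told apart. The probe for Adcyap1r1 read between 7.91 and 8.56 in the KO samples and between 8.26 and 8.76 in the WT samples on the log2 scale, and whether it lies in the deleted stretch is not given in the sources used here, so it does not check the genotype.

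Schwann cells are the glia of peripheral nerves, including the fine nerves that supply the skin and its sweat glands. Myelinating Schwann cells wrap a single axon in compact myelin, whereas non-myelinating ones hold bundles of thin axons. The transcription factor SOX10 is needed throughout the Schwann cell lineage, and together with EGR2 it drives the myelin genes. Of the members, Pmp22 and Mbp code for structural proteins of compact myelin, Prx for periaxin, a scaffold of the myelinating Schwann cell, and Mag for an adhesion protein at the face towards the axon. S100b codes for a calcium-binding protein used as a Schwann cell marker, Ngfr for the low-affinity neurotrophin receptor, which marks immature and non-myelinating Schwann cells, and Egfl8 for a secreted protein with EGF-like domains. None of these genes is read only in Schwann cells. Sox10 is also expressed in melanocytes, S100b in adipocytes and cartilage cells, Pmp22 in many other cells, and Ngfr in some keratinocytes and neurons. In RNA of whole skin, fewer cells of a type and less RNA per cell cannot be told apart.

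Promoter sequences of RefSeq (build GRCm38.p6, from 250 bases before to 50 bases after a gene start) were matched for 6 of the 8 genes, with 11 promoters between them. They were searched on both strands for the core ACAAAG that SOX factors bind, the EGR site GCGTGGGCG and the cyclic AMP response element TGACGTCA. None of the 3 motifs contains another. The SOX core was in 3 of the 11 promoters, 2 of Mag, which overlap and share the same match, and 1 of Egfl8, beside 18.7% of all 32851 promoters in the table. The EGR site was in 0 of the 11 and in 0.612% of all promoters, and the cyclic AMP response element in 0 of the 11 and in 1.79% of all promoters. The stretches upstream of the start are shown for the genes with a match to the SOX core, because SOX10 is itself one of the members. Both are given 5′ to 3′ on the strand of the gene, with the match in capitals, where the core reads on the other strand. The Mag stretch is chr7:30914864-30915113 and the Egfl8 stretch is chr17:34615972-34616221, both on the minus strand.
Mag: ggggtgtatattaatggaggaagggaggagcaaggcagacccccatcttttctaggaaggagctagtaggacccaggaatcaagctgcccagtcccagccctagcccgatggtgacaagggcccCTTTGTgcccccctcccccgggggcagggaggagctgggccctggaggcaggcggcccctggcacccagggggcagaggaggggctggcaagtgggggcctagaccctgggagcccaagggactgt
Egfl8: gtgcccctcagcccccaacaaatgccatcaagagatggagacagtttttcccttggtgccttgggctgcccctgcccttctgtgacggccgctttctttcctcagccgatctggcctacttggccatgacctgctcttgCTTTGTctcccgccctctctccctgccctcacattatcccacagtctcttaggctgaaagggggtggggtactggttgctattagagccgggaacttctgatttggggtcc
The match began 126 bases before the start in Mag and 111 bases before it in Egfl8. A match is a run of letters and does not show that a factor binds there.

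PACAP over vehicle ratios of the 8 genes stayed small. For the brightest probes, the mean of the 2 arrays lay between 0.858-fold and 1.25-fold for WT 30 min. It lay between 0.764-fold and 1.09-fold for KO 30 min, and between 0.897-fold and 1.32-fold for WT 60 min. For KO 60 min it lay between 0.861-fold and 1.25-fold. Outside these ranges, a dimmer Pmp22 probe had 1.25-fold for KO 30 min and a dimmer Mbp probe 1.35-fold for WT 60 min. A gene was counted when the mean of both arrays reached 2.0-fold or 0.5-fold, with the same direction and a scanner p below 0.01 on each array. In every comparison 0 of the 8 genes were counted, beside 0.541% of the genes tested for WT 30 min, 1.08% for KO 30 min, 1.02% for WT 60 min and 0.42% for KO 60 min. Against shares this low, a count of 0 does not set the 8 genes apart from the rest. With the threshold lowered to 1.5-fold the count was again 0 in all 4 comparisons, beside 2.19% of the genes tested for WT 30 min, 4.31% for KO 30 min, 1.37% for WT 60 min and 0.861% for KO 60 min.

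**Figure D1:**
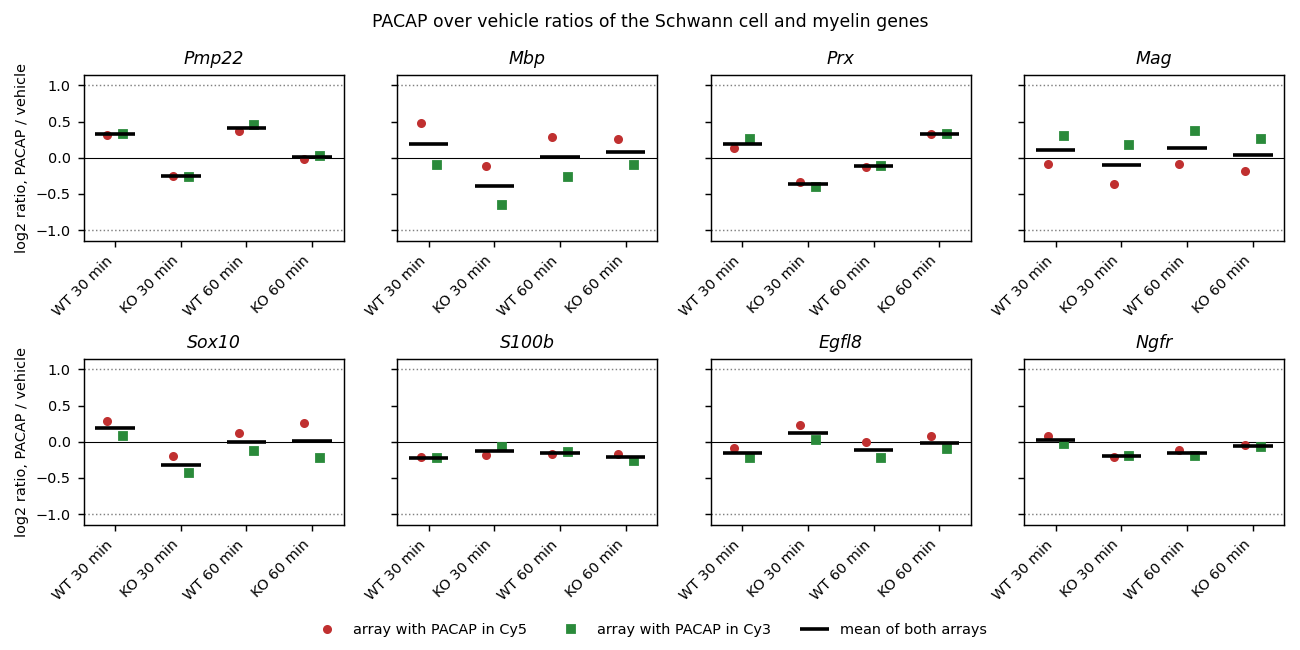
PACAP over vehicle log2 ratio (y axis) of the brightest probe of each gene in the 4 comparisons (x axis). Red circles are the array with PACAP in Cy5, green squares the array with PACAP in Cy3, black bars their mean, and dotted lines mark 2.0-fold and 0.5-fold, which no point of the 8 genes reaches. The points of S100b lie below 0 on all 8 arrays (on 7 with normexp and loess ratios, not plotted), and the dye-swapped points of Mag, Mbp and Sox10 lie apart.

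The proteins of compact myelin are taken first. The brightest Pmp22 probe (mm9, chr11:62972989-62973048) gave PACAP over vehicle log2 ratios of 0.32 and 0.33 on the 2 arrays for WT 30 min (the array with PACAP in Cy5 first, here and for the other genes), -0.25 and -0.26 for KO 30 min, 0.36 and 0.45 for WT 60 min, and -0.01 and 0.03 for KO 60 min. Averaged over the arrays, WT had 1.25-fold and 1.32-fold, and KO had 0.837-fold and 1.00-fold. WT thus lay above KO at both times. The difference between genotypes, -0.49 ± 0.20 (KO minus WT on the log2 scale, limma standard error, 2 comparisons each), did not pass the test (limma, adjusted p = 0.839 over 30351 probes). A difference as far from 0 was read for 10.1% of these probes. A dimmer Pmp22 probe (mm9, chr11:62971862-62971921) did not show the same order, with mean log2 ratios of 0.32 for KO 30 min and 0.29 for WT 60 min, and a difference between genotypes of -0.07 ± 0.24 (limma, adjusted p = 0.947).

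The ratios of Mbp depended on the dye. The brightest of its 3 probes gave 0.48 with PACAP in Cy5 and -0.10 with PACAP in Cy3 for WT 30 min, and -0.12 and -0.66 for KO 30 min. In all 4 comparisons the array with PACAP in Cy5 read higher, and only for KO 30 min did both arrays have the same sign, with a mean of 0.764-fold. Averaging the dye swap cancels such an offset, and the 4 means of this probe lay between 0.764-fold and 1.14-fold. The other 2 Mbp probes did not show the lower value for KO 30 min, with mean log2 ratios of -0.02 and 0.07. For WT 60 min they had 0.33 and 0.43, with the same sign on both arrays, where the brightest probe had 0.01. The dimmest Mbp probe was not well above background in vehicle RNA on 2 of 8 arrays.

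Prx and Mag belong to the myelinating Schwann cell's scaffold and its contact with the axon. Prx (mm9, chr7:28304999-28305058) had the same direction on both arrays in all 4 comparisons, as of the other members only S100b did. Its log2 ratios were 0.14 and 0.25 for WT 30 min, -0.33 and -0.41 for KO 30 min, -0.13 and -0.11 for WT 60 min, and 0.32 on both arrays for KO 60 min. The order of the genotypes at 60 min was therefore the opposite of that at 30 min. With normexp and loess ratios the mean of Prx for WT 60 min was -0.01 and its 2 arrays had opposite signs, while the other 3 comparisons kept their direction. Over the 4 comparisons the mean of Prx was 0.01 ± 0.13 on the log2 scale (limma, adjusted p = 1). Mag (mm9, chr7:31684202-31684261) was dim, with levels between 6.84 and 7.09 on the log2 scale, and its 2 arrays pointed in opposite directions in all 4 comparisons. Its mean log2 ratios lay between -0.10 and 0.14.

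Sox10, the lineage transcription factor (mm9, chr15:78985518-78985577), had log2 ratios of 0.29 and 0.08 for WT 30 min and of -0.20 and -0.44 for KO 30 min. At 60 min they were 0.13 and -0.12 for WT and 0.25 and -0.22 for KO, with means of 1.00-fold and 1.01-fold. As for Mbp, the array with PACAP in Cy5 read higher in all 4 comparisons. S100b (mm9, chr10:75723783-75723842) had log2 ratios of -0.21 and -0.23 for WT 30 min, -0.18 and -0.07 for KO 30 min, -0.17 and -0.15 for WT 60 min, and -0.17 and -0.26 for KO 60 min. All 8 values lay below 0, which was so for 1 of the 8 genes and for 0.906% of all genes tested. With normexp and loess ratios 7 of the 8 values lay below 0, and the array with PACAP in Cy3 for KO 30 min was at 0.02. The mean over the comparisons was -0.18 ± 0.08 (0.883-fold), which did not pass the test (limma, adjusted p = 1).

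Ngfr (mm9, chr11:95430211-95430270), measured on 10 spots per array of which at least 7 were usable, had log2 ratios of 0.08 and -0.04 for WT 30 min, -0.21 and -0.19 for KO 30 min, -0.12 and -0.20 for WT 60 min, and -0.04 and -0.07 for KO 60 min. In 7 of 8 arrays the value was below 0 (6 with normexp and loess ratios), and the mean was -0.10 ± 0.09 (limma, adjusted p = 1). With normexp and loess ratios Ngfr was at -0.13 for KO 30 min and -0.07 for WT 60 min, against -0.20 and -0.16 averaged over the arrays. Egfl8 (mm9, chr17:34750305-34750364) had mean ratios between 0.900-fold for WT 30 min and 1.09-fold for KO 30 min, with the same sign on both arrays in these comparisons and not in those at 60 min.

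Across all 8 genes, both arrays pointed the same way for 5 genes for WT 30 min, 7 for KO 30 min, 4 for WT 60 min and 3 for KO 60 min. The corresponding shares over all 23067 genes tested were 56.5%, 64.4%, 45.3% and 45.7%. By their brightest probes, 6 of the 8 genes had a mean ratio above 1 in WT and below 1 in KO at 30 min. They were Pmp22, Mbp, Prx, Mag, Sox10 and Ngfr, and 33.2% of all genes shared the pattern. The median log2 ratio of the 8 genes was 0.14 for WT 30 min, -0.23 for KO 30 min, -0.06 for WT 60 min and 0.01 for KO 60 min. Over all genes tested the medians were -0.04, -0.01, -0.01 and 0.00 in the same order.

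Genes of skeletal muscle lay on the same sides of 0 at 30 min and further from it. Over all genes tested, 43.3% lay above 0 for WT 30 min and 48.4% for KO 30 min. In WT 10 of 10 muscle genes lay above 0 with a median log2 ratio of 0.90, and 4 of them passed the counting rule. The highest were Ttn (3.14-fold), Myh4 (2.75-fold) and Myh1 (2.67-fold), which code for the giant sarcomere protein titin and for myosin heavy chains. In KO 9 of 10 lay below 0 with a median of -0.97, and 4 passed the rule downwards, of which Myh4 (0.402-fold), Actn3 (0.433-fold) and Myh1 (0.445-fold) were lowest. The mean log2 level of the muscle list was 11.6 in vehicle and 12.6 in PACAP for WT 30 min, and 12.1 in vehicle and 11.3 in PACAP for KO 30 min. The 8 genes of basal keratinocytes also lay on these sides without passing the rule, with medians of 0.25 in WT, where 8 of 8 lay above 0, and -0.56 in KO, where 8 of 8 lay below 0. In KO at 60 min the keratinocyte median was 0.33, in the comparison where Prx was 1.25-fold. Of 6 cartilage genes past the filter on dim spots, 4 lay above 0 for WT 30 min with a median of 0.25, and 5 lay below 0 for KO 30 min with a median of -0.45, while the medians at 60 min were 0.15 in WT and 0.00 in KO. The 8 melanocyte genes lay on the other sides at 30 min, with medians of -0.17 in WT and 0.10 in KO, and had 0.16 and -0.02 at 60 min. The 8 adipocyte genes had medians of -0.12 and -0.02 at 30 min and of -0.14 and -0.04 at 60 min, WT first. Of the cartilage, melanocyte and adipocyte lists 0 genes passed the rule in any comparison. The part of these tissues and cells in the ratios of the Schwann cell and myelin genes was not tested.

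None of the tests over the 4 comparisons called a member. For the mean PACAP effect, limma called 0 of 30351 probes (0%) at an adjusted p below 0.05, with 678 probes and 0 member probes at an unadjusted p below 0.05. For the PACAP effect in KO minus WT it called 0 probes (0%), with 972 probes and 0 member probes unadjusted, and for 60 minus 30 min 0 probes (0%), with 483 and 0. With normexp and loess ratios, 1 member probe had an unadjusted p below 0.05 for the mean effect and 1 for KO minus WT. The same held without the filter on dim probes, beside between 2.29% and 4.99% of all probes in these fits. The standard errors of the 8 genes lay between 0.08 and 0.29 on the log2 scale.

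**Figure D2:**
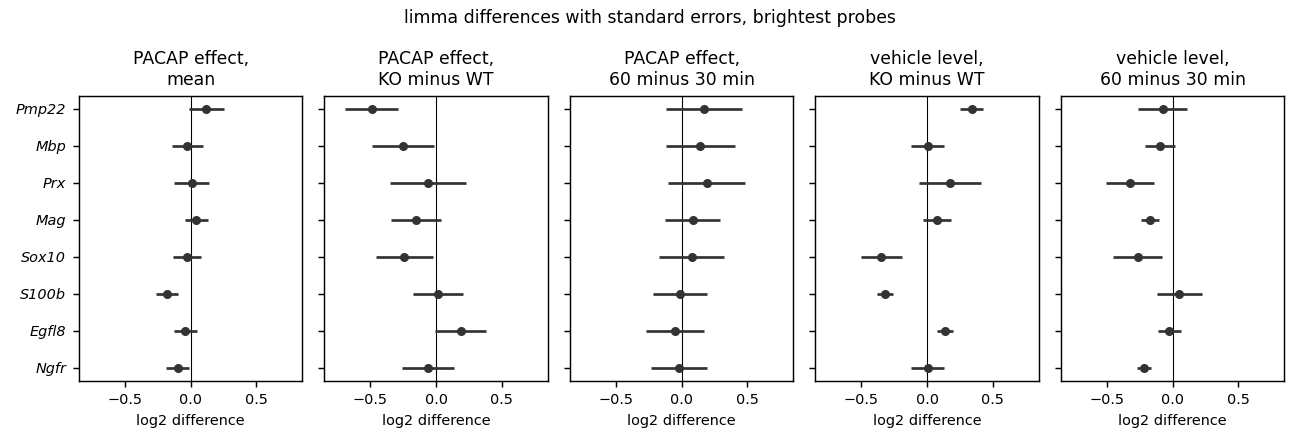
limma log2 differences (x axis) of the 8 genes (y axis, brightest probes) in the 5 fits, with bars of 1 standard error. In the 3 fits of the PACAP effect most bars of 1 standard error cross 0, and Pmp22 lies lowest for KO minus WT at -0.49. In the vehicle levels S100b and Sox10 lie below 0 for KO minus WT, and Ngfr lies below 0 for 60 minus 30 min.

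The levels in the 8 RNA samples were then compared between genotypes and between times. Levels are log2 intensities normalized within and between arrays, and they compare samples for a probe but not probes with each other. S100b read 12.94 and 12.99 in WT vehicle at 30 and 60 min and 12.71 and 12.83 in WT with PACAP, against 12.61 and 12.67 in KO vehicle and 12.49 and 12.50 in KO with PACAP. Every WT sample, and so every sample of the WT slide, was above every KO sample. In vehicle samples the difference was -0.32 ± 0.06 (0.800-fold, KO minus WT, 2 samples each), which did not pass the test over 37525 probes (limma, adjusted p = 0.762).

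Sox10 read 8.72 and 8.38 in WT vehicle at 30 and 60 min and 8.90 and 8.35 in WT with PACAP, against 8.30 and 8.11 in KO vehicle and 8.09 and 8.13 in KO with PACAP. Here too the genotypes did not overlap, although the 2 arrays of a sample differed by up to 0.67. The vehicle difference was -0.35 ± 0.15 (limma, adjusted p = 0.802), and it was -0.18 without the WT 30 min sample and -0.52 without the WT 60 min sample. Egfl8 went the other way, with 10.22 to 10.35 in the 4 KO samples and 10.00 to 10.13 in the 4 WT samples, and a vehicle difference of 0.14 ± 0.06 (limma, adjusted p = 0.794). These 3 of the 8 genes had levels that did not overlap between KO and WT over the 8 RNA samples, beside 16.7% of 28291 genes. PACAP and vehicle samples of a pair shared their arrays, so the 8 samples are not 8 independent values.

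**Figure D3:**
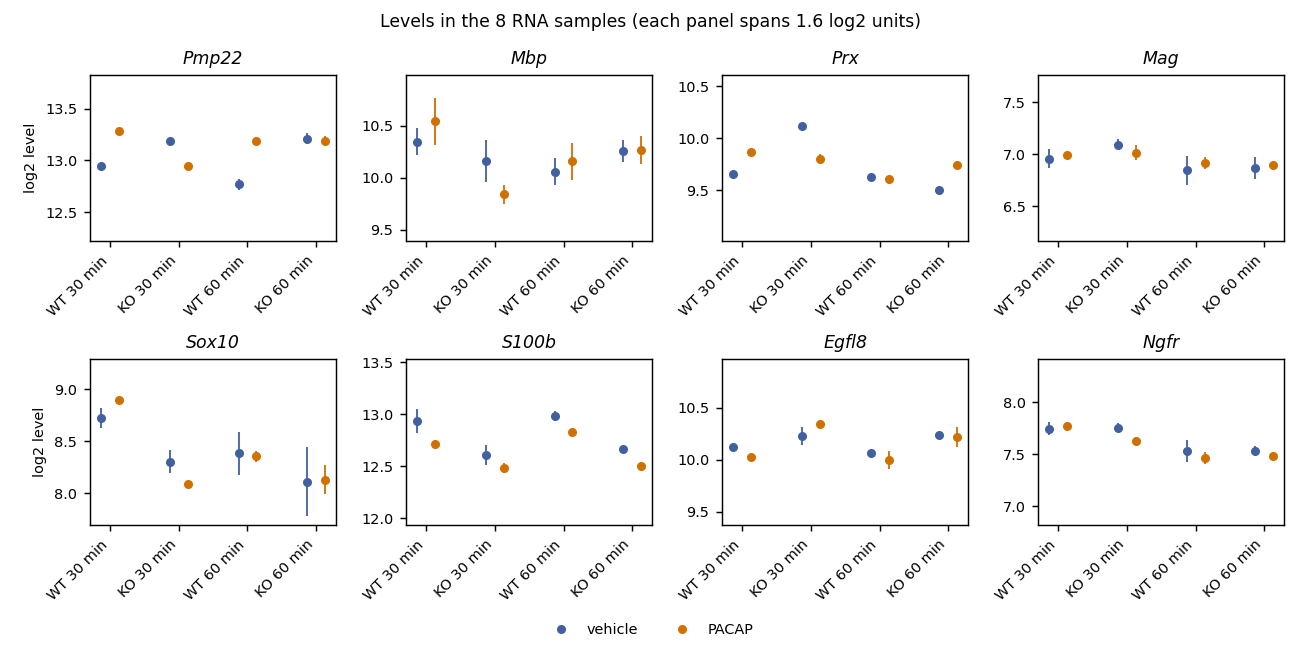
log2 level (y axis, 1.6 units in each panel) of each gene's brightest probe in the 8 RNA samples, by comparison (x axis). Blue points are vehicle and orange points PACAP, each the mean of 2 arrays, and vertical lines span the 2 arrays. For S100b and Sox10 all KO points lie below all WT points, and for Ngfr all points at 60 min lie below all points at 30 min.

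The brightest Pmp22 probe read 12.95 and 12.77 in WT vehicle at 30 and 60 min and 13.19 and 13.21 in KO vehicle, a difference of 0.34 ± 0.09 (limma, adjusted p = 0.762). With PACAP it read 13.28 and 13.19 in WT and 12.95 and 13.19 in KO. A vehicle difference as far from 0 was read for 6.25% of all probes tested. With PACAP the genotypes were equal at 60 min to 2 decimals. The dimmer Pmp22 probe pointed the other way in vehicle samples, at -0.31 ± 0.17 (limma, adjusted p = 0.850), so the probes of this gene disagree in direction. In the same comparison 8 of 8 basal keratinocyte genes lay above 0, with a median of 0.17, and their part in the Pmp22 levels was not tested. The vehicle differences of Mbp, Prx, Mag and Ngfr lay between 0.01 and 0.17 for their brightest probes. For KO minus WT in vehicle samples limma called 0 of 37525 probes (0%), with 2426 probes at an unadjusted p below 0.05, among them probes of 3 of the 8 genes (S100b, Pmp22 and a dimmer probe of Mbp at -0.20).

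In a fit of all 8 RNA samples, with treatment and time as covariates and the hybridised pair as a random block, S100b was called lower in KO at -0.30 ± 0.03 (limma, adjusted p = 0.023). That fit takes 1 correlation within pairs, estimated over all probes, and still rests on 4 pairs. S100b was the only one of the 8 genes called, and 5.5% of all probes were called in that fit. Sox10 was at -0.43 ± 0.11 there (limma, adjusted p = 0.077), Egfl8 at 0.20 ± 0.05 (limma, adjusted p = 0.070) and the brightest Pmp22 probe at 0.09 ± 0.15 (limma, adjusted p = 0.751). Lists of other cells that express S100b were read beside it. The mean log2 level of the cartilage genes lay between 8.28 and 8.45 in the KO samples and between 8.53 and 8.74 in the WT samples, without overlap, whereas the adipocyte genes read 10.57 to 10.64 in KO and 10.52 to 10.62 in WT. The melanocyte genes read 7.42 to 7.61 in KO and 7.38 to 7.54 in WT. The part of these cells in the S100b and Sox10 levels was not tested.

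Between times, Ngfr read 7.75 in WT vehicle and 7.76 in KO vehicle at 30 min, and 7.53 in both at 60 min. With PACAP it read 7.78 for WT 30 min and 7.63 for KO 30 min, and 7.47 and 7.49 at 60 min, so every sample at 60 min was below every sample at 30 min. The vehicle difference was -0.22 ± 0.05 (0.860-fold, 60 minus 30 min, 2 samples each) and did not pass (limma, adjusted p = 0.215). In the fit of all 8 RNA samples Ngfr was called at -0.22 ± 0.04 (limma, adjusted p = 0.030), again as the only one of the 8 genes, while 10.8% of all probes were called there. The 8 samples of that fit come from 4 pairs and are not 8 independent values. Lists of other cells that express Ngfr were read beside it. In vehicle samples 8 of 8 basal keratinocyte genes lay below 0 for 60 minus 30 min, with a median of -0.52. Of these genes 6 had an unadjusted p below 0.05 (limma called 0), beside 16.8% of all probes. The mean log2 level of the 8 keratinocyte genes was 12.7 and 12.9 in vehicle samples at 30 min and 12.2 and 12.3 at 60 min, WT first. The mean level of 5 neuronal genes lay between 7.68 and 7.81 in the samples at 30 min and between 7.56 and 7.64 at 60 min, without overlap, although over the 7 neuronal genes tested in vehicle samples the median difference was -0.02, with 4 below 0. The part of these cells in the Ngfr levels was not tested.

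Mag was the other gene whose times did not overlap, with 6.96 to 7.09 at 30 min and 6.84 to 6.92 at 60 min and a vehicle difference of -0.17 ± 0.07 (limma, adjusted p = 0.348). That difference was -0.10 without the KO 30 min sample and -0.26 with quantile normalized processed signals. Thus 2 of the 8 genes had times that did not overlap, beside 21.9% of all genes. Prx read 10.12 in KO vehicle at 30 min, its highest value, and its lowest value was in KO vehicle at 60 min, with a difference of -0.62 between these samples, against 9.65 and 9.62 in WT vehicle. For 60 minus 30 min in vehicle samples limma called 0 of 37525 probes (0%), with 6287 probes at an unadjusted p below 0.05, of which 1 was a member probe, that of Ngfr.

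The other genes of the pathway were read from lists of genes with known roles. Of 14 other myelin genes, all measured above the filter on dim spots, 0 passed the counting rule in any comparison. Their median log2 ratios were 0.07 for WT 30 min and -0.14 for KO 30 min, and -0.06 and 0.00 at 60 min. limma called 0 of the 14 in any of the 5 fits. The vehicle level in 60 minus 30 min had 4 of the 14 at an unadjusted p below 0.05, beside 16.8% of all probes. The other fits had 0 or 1 of the 14. For the mean PACAP effect 1 of them had an unadjusted p below 0.05, Fa2h, a fatty acid hydroxylase of myelin and skin lipids that is named here for its value, at 0.49 ± 0.14 (limma, adjusted p = 1).

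Of 20 genes of the Schwann cell lineage, 18 passed the filter on dim spots and 0 passed the counting rule. For KO 30 min 16 of the 18 lay below 0, with a median of -0.19, and for KO 60 min 13 of the 18 lay above 0, with a median of 0.06. Over all genes tested, 48.4% lay above 0 for KO 30 min and 51.2% for KO 60 min. Some of the 16 had arrays of opposite sign, and only 12 of the 20 genes were well above background in all RNA samples. limma called 0 of the list in the 5 fits. For the vehicle level in 60 minus 30 min, 6 genes had an unadjusted p below 0.05, beside 16.8% of all probes. The other fits had 0. In WT 8 of the 18 lay above 0 at 30 min and 7 at 60 min, with medians of -0.03 and -0.09. Egr2, the factor that drives myelin genes and that is also an immediate early gene in many cells, had log2 ratios of 0.54 and 0.62 for WT 30 min, and means between 0.04 and 0.26 in the other comparisons. Its mean over the comparisons was 0.27 ± 0.11 (limma, adjusted p = 1). Its level in vehicle samples was 8.39 and 8.69 at 30 min, WT first, and the difference to 60 min was 0.95 ± 0.12, which did not pass (limma, adjusted p = 0.195).

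Erbb3, the receptor through which axonal neuregulin acts on Schwann cells, was at the edge of detection, with levels between 6.02 and 6.25. Its signal was well above background on 4 of 8 arrays in each treatment. Its arrays had opposite signs in all 4 comparisons. Sox10, by contrast, was above background in both treatments on every array.

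Ngfr binds neurotrophins together with the Trk receptors. Of 10 neurotrophin and receptor genes 0 passed the counting rule, and their median log2 ratios were -0.13 and -0.07 at 30 min and 0.00 and -0.05 at 60 min, WT first. limma called 0 of them in any of the 5 fits, with between 0 and 2 at an unadjusted p below 0.05. It was 2 for the vehicle level in KO minus WT and in 60 minus 30 min, beside 6.47% and 16.8% of all probes.

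**Figure D4:**
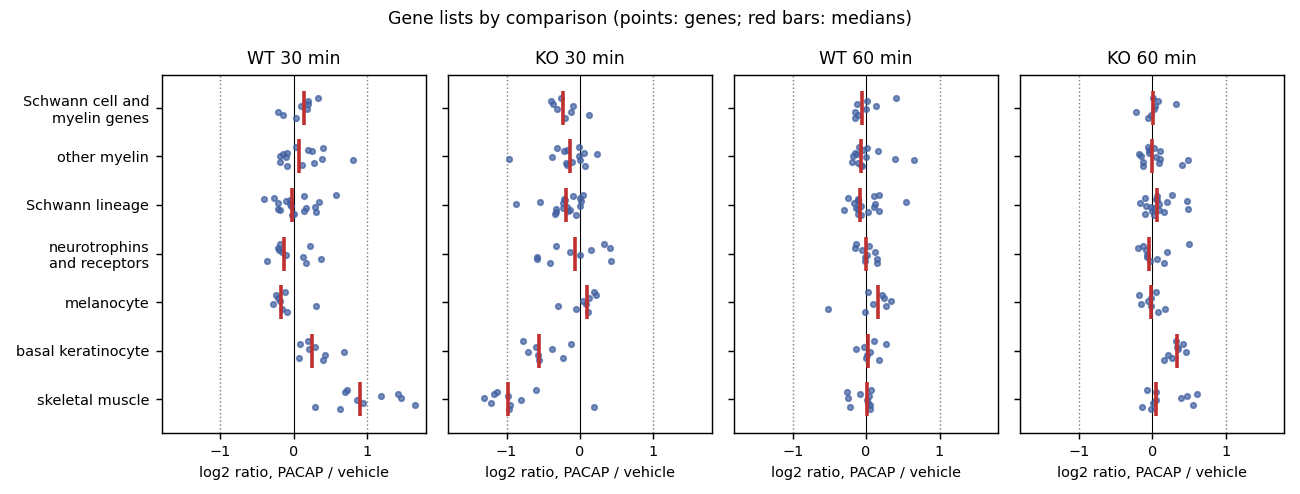
PACAP over vehicle log2 ratios (x axis) of the genes in 7 lists (y axis), in the 4 comparisons. Blue points are genes (brightest probes past the filter on dim spots), red bars medians, and dotted lines 2.0-fold and 0.5-fold. At 30 min the skeletal muscle genes lie far right in WT (median 0.90) and far left in KO (median -0.97), while the medians of the Schwann cell and myelin lists lie between -0.23 and 0.14.

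The 8 genes did not follow a common course over the RNA samples. Over the 8 samples Pearson's r of the levels was 0.88 between Prx and Mag, 0.76 between Mag and Ngfr and 0.71 between Mbp and Sox10. It was 0.00 between Mbp and Prx, 0.25 between Pmp22 and Prx, and -0.74 between S100b and Egfl8. These are descriptions of samples that share arrays and slides in pairs. Among 16139 genes well above background in all samples, those whose levels were most like the mean of Pmp22, Mbp, Prx and Mag were Utp3 (r = 0.99), Ptcd3 (0.98), Kpna4 (0.98), Zc3h15 (0.98) and Eif3l (0.98). Among these, Eif3l codes for a subunit of a translation initiation factor and Kpna4 for a nuclear import receptor, and none of the 5 was on a list of Schwann cell genes. The 8 basal keratinocyte genes had r between 0.64 and 0.97 with that mean, highest for Trp63, a transcription factor of basal keratinocytes. Their ranks among the 16139 genes ran from 9 to 3199. The endothelial genes lay between -0.74 and 0.81. The skeletal muscle genes lay between -0.59 (Mylpf) and 0.84 (Ttn), and the melanocyte genes between -0.64 (Tyr) and 0.90 (Mitf). The other myelin genes among those compared lay between -0.78 (Cldn19) and 0.91 (Mal), and the genes of the Schwann cell lineage between -0.43 (Plekhb1) and 0.85 (Adgrg6), with Egr2 at -0.31. Trp63, Mylpf, Tyr, Mitf, Cldn19, Mal, Plekhb1 and Adgrg6 are named for these values.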

How the data were processed

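Forepaw skin RNA was measured on 8 two-colour Agilent arrays. Scans were read by the authors in Agilent Feature Extraction (11.0.1.1 in the submitters' processing notes, 12.0.3.1 in the file headers), which corrected background and normalized dyes. The deposited values used were the log10 ratio of red over green, its p-value per spot, and the channel intensities. The authors' series matrix holds log10 ratios of the same arrays, equal to the scanner files within 5e-10. The members, lists, tests and alternatives were chosen with earlier results of these data known.

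Control spots and outlier spots (198 to 342 per array) were left out, 0 spots were saturated, and between 54.0% and 94.5% of spots per channel were well above background. The number of arrays limits the precision. Ratios were turned to PACAP over vehicle by the dyes in the labels, changed from log10 to log2, and averaged over a probe's spots and both arrays. A scanner p speaks of 1 array, not of animals. A gene with several probes was given by its brightest. Levels were corrected for background by normexp (offset 50), then by loess within an array and by Aquantile across arrays. The linear models were those of limma 3.58.1 under R 4.3.3, with moderated tests and Benjamini-Hochberg adjustment over every probe tested, on 30351 probes above background in a channel on every array, or on 37525 above background in a vehicle sample. Separate animals per sample are not stated, so p-values measure the spread between these samples, which may be technical. The steps were tested on simulated data. Python 3.11.15 with pandas 2.3.3, numpy 2.4.6, scipy 1.17.1 and matplotlib 3.10.9 was used. Probe coordinates and names are those of the files (mm9), and promoters those of RefSeq (GRCm38.p6).

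The text names the 8 members, Egr2 and Erbb3, list genes past the counting rule (at most 3 of a list in a comparison, by size), and the 5 genes most like the mean of 4 myelin members. Others are named for their values, as said beside them. The other lists were endothelial genes, with median log2 ratios between -0.12 and 0.03, and neuronal genes, between -0.23 and 0.18, with 0 genes of either past the counting rule. Some genes of the lists are not reported here by name.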

Additional observations from a re-analysis of the deposited data

How the results depend on the processing

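The count of members past the counting rule was 0 in every comparison under all 8 alternatives (no p filter, 1.5-fold, single arrays, normexp and loess, median centring, outlier spots kept and the series matrix). The limma counts of members were also 0 under every other alternative, leaving out each comparison or vehicle sample included (0 to 0), except in the fit of all 8 RNA samples with the pair as a random block. That fit called 2064 probes for KO minus WT and 4043 for 60 minus 30 min, where the others called 0. There 1 member was called for the vehicle level in KO minus WT (S100b, -0.30) and 1 for 60 minus 30 min (Ngfr, -0.22). For the mean PACAP effect 1 probe was called without WT 30 min. For the PACAP effect in KO minus WT, 170 probes were called without WT 30 min, 83 without WT 60 min and 17 with time as a covariate, and for 60 minus 30 min 18 without KO 60 min and 2 with genotype as a covariate. None of these was a probe of a member. Over the alternatives the S100b difference lay between -0.35 and -0.26, with adjusted p between 0.023 and 1.00, and the Ngfr difference between -0.30 and -0.21, with adjusted p between 0.030 and 0.579. That of Pmp22 lay between 0.09 and 0.43, and was smallest in the fit of all 8 samples. The cause was not tested. Of the 32 ratios of members, 2 had another sign with normexp and loess, and 13 had another sign on 1 of the 2 arrays. Each main fit rests on 4 values, 1 RNA pair or vehicle sample for each genotype and time, which limits what small differences can be called. PACAP and vehicle were compared within their hybridised pairs. By replicate number, no paired analysis was possible because the numbers in the labels mark the dye orientation of the same RNA pair and match no other samples.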
